A study of Mus musculus with 7 samples.

Results

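The genes of antigen presentation were followed in whole thymus of wild type mice and of mice homozygous for a mutation of the first (ZnF1-/-) or the fourth (ZnF4-/-) DNA-binding zinc finger of the transcription factor Ikaros. The set holds 44 of the 16734 genes in the expression table. It comprises the 33 rows whose symbol starts with H2-, the prefix of the mouse major histocompatibility complex (MHC), and 11 genes named for their part in antigen presentation (B2m, Tap1, Tap2, Tapbp, Nlrc5, Ciita, Cd74, Calr, Pdia3, Erap1 and Cd1d1). By role, taken from the symbol, there were 21 class I chains, 7 class I assembly and loading genes, the class I regulator Nlrc5, 10 class II genes, the class II regulator Ciita, the CD1 gene Cd1d1 and 3 further H2- rows. The members were picked by name, but with earlier results of these data known.

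MHC class I molecules are found on most nucleated cells and show peptides made in the cytosol to CD8 T cells. A heavy chain folds around the light chain B2m in the endoplasmic reticulum, where the Tap1 and Tap2 transporter brings in peptides, Erap1 trims them, and tapasin (Tapbp), calreticulin (Calr) and Pdia3 assist loading. MHC class II molecules are made mainly by dendritic cells, B cells, macrophages and epithelial cells of the thymus, and show endocytosed peptides to CD4 T cells. The invariant chain Cd74 fills the class II groove until the H2-DM proteins exchange it for peptide, and H2-O proteins restrain H2-DM. Nlrc5 and Ciita are related coactivators, of class I and class II genes respectively. In the thymus, both kinds of molecule select developing T cells.

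RNA was read as polyadenylated RNA from suspensions of whole thymus at 4 weeks of age. There were 3 wild type libraries (strain label C57BL/6; replicates 1, 2A and 2B), 2 ZnF1-/- libraries and 2 ZnF4-/- libraries (replicates 1 and 2), and the labels give no strain for the mutants besides their genotype. No sample was labelled as sorted, so in these bulk samples fewer cells of a type and less RNA per cell cannot be told apart. The labels do not say whether replicates are separate animals, so p-values measure the spread between these samples. Levels are RPKM, exonic reads corrected for gene length and sequencing depth. Differences are on the log2(RPKM + 0.5) scale, which understates the change of low genes, and are given with their SE.

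Replicate 1 of each group was read as 76 bp and the others as 50 bp on another instrument, and sex went with that division. The female-specific RNA Xist ranged from 90.6 to 109 RPKM with 76 bp reads and from 0.01 to 0.03 RPKM with 50 bp reads. Each mutant was therefore also compared with wild type of its own replicate number, and a second fit held the replicate number as a block. Each library listed 10185 to 10695 genes at or above 1 RPKM. The best-fitting depth of the 76 bp libraries, from the size of 1-read steps in low values, was 20130000 reads in wild type, 14280000 in ZnF1-/- and 6310000 in ZnF4-/-. No depth could be had for the 50 bp libraries. Ikzf1, the gene of Ikaros, was at 142, 175 and 169.5 RPKM in wild type, 183 and 194 RPKM in ZnF1-/- and 238 and 257 RPKM in ZnF4-/-, in the order replicate 1, 2A and 2B for wild type and 1 and 2 for each mutant, an order used throughout. A level over the whole gene does not check the mutation of a finger. All 12 markers of double-positive thymocytes averaged at least 1 RPKM.

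Of the 44 members, 34 averaged 1 RPKM or more across the 7 libraries and were tested among 10498 genes. These were 23 class I members, 7 class II members, Cd1d1 and the 3 further H2- rows. The 10 below that level were Ciita, H2-DMb1, H2-DMb2, H2-Eb2, H2-T3, H2-Q8, H2-Q10, H2-M5, H2-M10.2 and H2-Bl. In wild type the order of levels was led by B2m at 629.8 ± 100.6 RPKM (SD, n = 3), followed by Calr at 98 ± 18.9, H2-K1 at 86.9 ± 10.4, Pdia3 at 70.5 ± 8.92, H2-D1 at 58.5 ± 4.95, Tap2 at 57.3 ± 20.3 and Cd74 at 49.2 ± 11.6 RPKM. B2m stood far above the spread of the next gene, whereas from Calr down to Cd74 each gene overlapped the next in mean ± SD.

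The class I chain genes H2-K1 and H2-M2 and the class I regulator Nlrc5 were higher in ZnF4-/- thymus than in wild type. The classical heavy chain gene H2-K1 rose from 86.9 ± 10.4 RPKM (SD, n = 3) in wild type to 163 ± 3.94 RPKM (n = 2), Nlrc5 rose from 6.65 ± 0.515 to 13.2 ± 2.16 RPKM, and the non-classical chain gene H2-M2 rose from 0.383 ± 0.127 to 3.32 ± 0.375 RPKM. In all, 3 of 34 tested members rose and 0 fell in ZnF4-/- against wild type by limma. Over all 10498 tested genes the share called higher was 2.24% and the share called lower 0.305%. With the replicate block 10 members rose and 2 fell, against 6.10% and 2.12% of all tested genes. The 10 were H2-M2, H2-K1, Nlrc5, H2-D1, H2-Q7, H2-Q9, H2-Q6, Tapbp, Tap1 and the class II gene H2-Oa, and the 2 were H2-Q2 and the class II gene H2-Ob.

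H2-K1 (mm9 chromosome 17, 34132962 to 34137278, minus strand) encodes one of the classical chains that present peptide to CD8 T cells. Its level was 75.7, 96.3 and 88.6 RPKM in wild type, 69.5 and 68.8 RPKM in ZnF1-/- and 165 and 159.9 RPKM in ZnF4-/-. Both ZnF4-/- libraries lay above every other library, and the ZnF1-/- libraries were the lowest of all. The difference of ZnF4-/- from wild type was 0.91 ± 0.17 log2 units (limma adjusted p = 0.0372), and it was 1.12 within replicate 1 and 0.79 within replicate 2. H2-D1 (chromosome 17, 35399675 to 35404444, plus strand), the other classical chain with a row in the table, was at 54.1, 63.8 and 57.6 RPKM in wild type, 59.2 and 50.7 RPKM in ZnF1-/- and 95.6 and 92.4 RPKM in ZnF4-/-. Its ZnF4-/- libraries were again above all others. The difference from wild type was 0.68 ± 0.16 log2 units (limma adjusted p = 0.0946), and it passed with the replicate block (adjusted p = 0.00923).

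**Figure D1:**
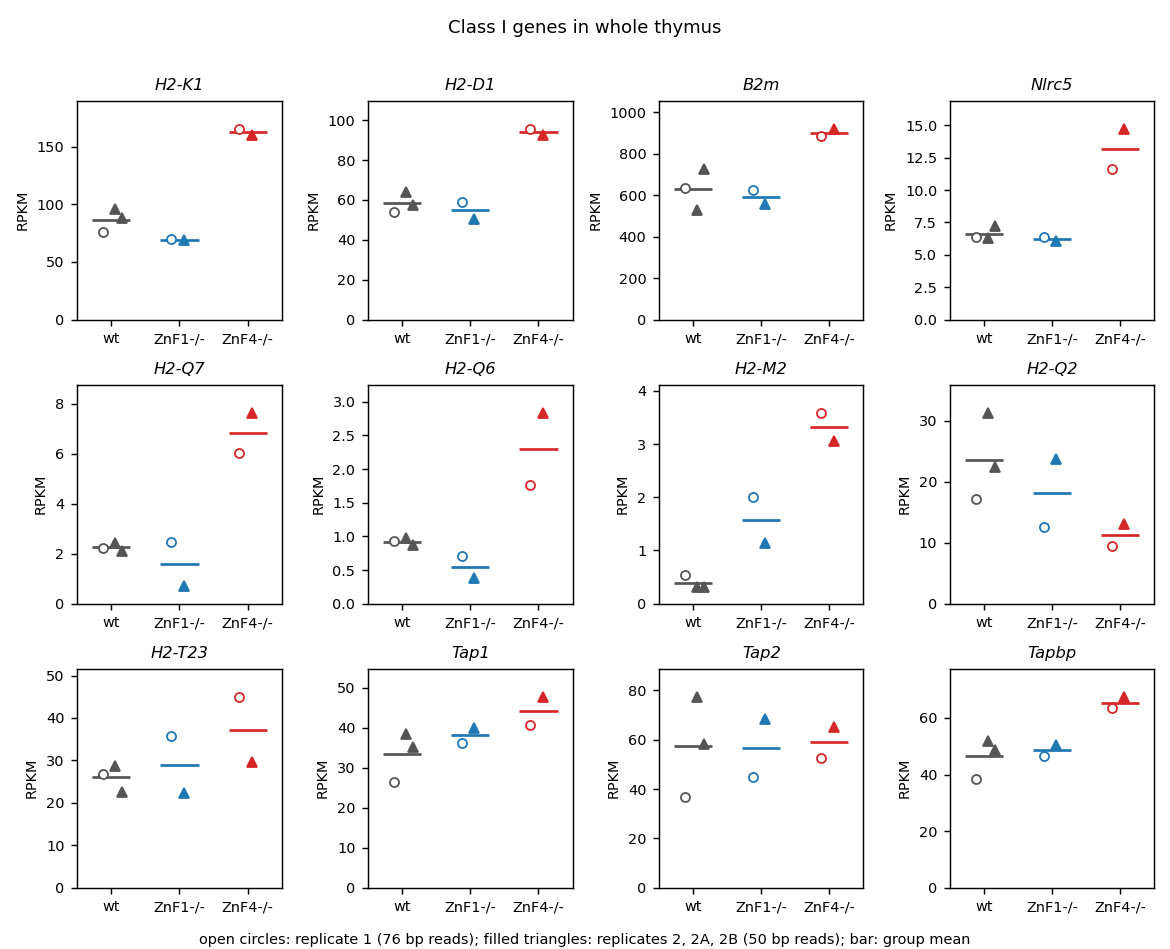
Levels of 12 class I genes in RPKM on linear axes starting at 0, 1 panel a gene, in wild type, ZnF1-/- and ZnF4-/- libraries. Open circles are replicate 1 (76 bp reads), filled triangles the 50 bp replicates and bars the group means. In the H2-K1 panel the 2 ZnF4-/- libraries sit at 165 and 160 RPKM, above the wild type range of 75.7 to 96.3 RPKM, while in the H2-Q2 panel they are the lowest within each read length.

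B2m (chromosome 2, 121973422 to 121978819), the light chain that every class I molecule needs, was at 636, 526 and 727 RPKM in wild type, 627 and 559 RPKM in ZnF1-/- and 885 and 919 RPKM in ZnF4-/-. The ZnF4-/- libraries were the highest, but wild type itself spanned 526 to 727 RPKM. The difference of 0.53 ± 0.22 log2 units (limma adjusted p = 0.47) did not pass, nor did it with the replicate block (adjusted p = 0.103). Nlrc5 (chromosome 8, 96996663 to 97051172, plus strand), the coactivator of class I genes, was at 6.38, 6.32 and 7.24 RPKM in wild type, 6.36 and 6.09 RPKM in ZnF1-/- and 11.7 and 14.7 RPKM in ZnF4-/-. Its ZnF4-/- libraries lay above the rest, and the difference from wild type was 0.93 ± 0.15 log2 units (limma adjusted p = 0.0244). It was 0.82 within replicate 1 and 1.07 within replicate 2.

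H2-M2 (chromosome 17, 37617796 to 37620497, minus strand), a non-classical chain at the far end of the complex from H2-K1, was at 0.53, 0.31 and 0.31 RPKM in wild type, 2.01 and 1.14 RPKM in ZnF1-/- and 3.58 and 3.05 RPKM in ZnF4-/-. Wild type values were near the bottom of the measured range, both ZnF1-/- values were above them, and both ZnF4-/- values were higher still. The rise in ZnF4-/- was 2.12 ± 0.25 log2 units (limma adjusted p = 0.00565). H2-M2 reached the mean of 1 RPKM only through the mutants, and without that minimum it still passed (adjusted p = 0.00911). The estimated reads behind these values in the 76 bp libraries were 16 in wild type, 44 in ZnF1-/- and 35 in ZnF4-/-, so single values carry counting error. The call of H2-M2 was lost without ZnF4-/- replicate 1 (adjusted p = 0.0645) and kept without each of the other 6 libraries.

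Calls of H2-K1 and Nlrc5 were lost more often than that of H2-M2 when 1 library was left out. H2-K1 remained past the threshold in 1 of the 7 fits that left out a library, without wild type replicate 1, and Nlrc5 in 2 of them. With wild type 2A and 2B averaged to 1 library, the limma adjusted p was 0.12 for H2-K1 and 0.0872 for Nlrc5, and with a minimum mean of 5 RPKM it was 0.0789 and 0.051. With the 2 groups alone in the fit it was 0.0874 for H2-K1. Without ZnF4-/- replicate 1 the adjusted p was 0.248 for H2-K1 and 0.068 for Nlrc5. Over all alternatives tried, the log2 difference stayed between 0.81 and 1.01 for H2-K1, between 0.77 and 1.09 for Nlrc5 and between 1.64 and 2.85 for H2-M2. Instead of 3 members, 0 were called when ZnF4-/- replicate 1 was left out, and 1 when ZnF4-/- replicate 2, wild type 2A or wild type 2B was.

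In the H2-Q cluster 3 rows rose and 1 fell in ZnF4-/- with the block, and 0 passed without it. H2-Q7 (chromosome 17, 35576100 to 35580714), a chain of the non-classical Qa-2 molecule, was at 2.24, 2.45 and 2.09 RPKM in wild type, 2.46 and 0.72 RPKM in ZnF1-/- and 6.02 and 7.63 RPKM in ZnF4-/-. The ZnF4-/- libraries were the highest and ZnF1-/- replicate 2 the lowest. Its difference was 1.40 ± 0.35 log2 units (limma adjusted p = 0.12), and it passed with the block (adjusted p = 0.0342). The row H2-Q9, at 2.26, 2.48 and 2.11 RPKM in wild type, 2.49 and 0.72 RPKM in ZnF1-/- and 6.07 and 7.70 RPKM in ZnF4-/-, held the same reads as H2-Q7. Their values times exon length differed by at most 0.98% in every library, so they are 1 measurement and are counted as 2 rows above. H2-Q6 (chromosome 17, 35561795 to 35567000) was at 0.93, 0.97 and 0.87 RPKM in wild type, 0.71 and 0.38 RPKM in ZnF1-/- and 1.77 and 2.83 RPKM in ZnF4-/-, a difference of 0.95 ± 0.24 log2 units (limma adjusted p = 0.135) that passed with the block (adjusted p = 0.0427). Estimated reads for H2-Q6 in the 76 bp libraries were 18 in wild type, 10 in ZnF1-/- and 11 in ZnF4-/-.

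H2-Q2, which the annotation places at 2 loci in the same cluster (chromosome 17, 35457350 to 35462044 and 35479187 to 35483707), went the other way, at 17.2, 31.2 and 22.4 RPKM in wild type, 12.6 and 23.7 RPKM in ZnF1-/- and 9.47 and 13.1 RPKM in ZnF4-/-. Levels were higher with 50 bp reads in every group, and within each read length the ZnF4-/- library was the lowest. The difference was -1.01 ± 0.34 log2 units (limma adjusted p = 0.292), and H2-Q2 fell with the block (adjusted p = 0.0111). H2-T23, the gene of the non-classical Qa-1 chain, was at 26.8, 28.7 and 22.5 RPKM in wild type, 35.8 and 22.3 RPKM in ZnF1-/- and 44.9 and 29.5 RPKM in ZnF4-/-. Its ZnF4-/- libraries were the highest within each read length, ZnF1-/- replicate 1 lay above ZnF4-/- replicate 2, and the difference of 0.48 ± 0.26 log2 units (limma adjusted p = 0.706) did not pass. H2-T24, a further non-classical chain, was at 15.7, 12.3 and 13.5 RPKM in wild type, 14.7 and 12.96 RPKM in ZnF1-/- and 15.7 and 17.7 RPKM in ZnF4-/-, with a difference of 0.27 ± 0.16 log2 units (limma adjusted p = 0.753).

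Class I chains are close copies of each other, so reads can be shared or split between rows in ways that depend on the counting. Of the 50-base stretches of coding transcripts, 8.9% in H2-K1, 14.3% in H2-D1, 23.2% in H2-Q6, 27.0% in H2-Q7 and 10.7% in H2-Q2 occurred in another gene, against 1.3% in H2-M2 and none in B2m, Cd74, H2-Aa, H2-Ab1 and H2-Eb1. With 76-base stretches the share was 1.4% in H2-K1 and 6.4% in H2-D1. Values of the H2-Q and H2-T rows are therefore uncertain as single genes. H2-T22 and H2-T9 also held the same reads, within 1.09% in every library, and 29 H2- rows were compared in this way. No member changed its direction against wild type between the 76 bp and 50 bp libraries among H2-K1, H2-D1, Nlrc5, H2-M2, H2-Q6 and H2-Q7 in ZnF4-/-.

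Of the other tested chains, H2-T10 was at 4.57 ± 1.10 RPKM in wild type and 3.61 ± 1.45 in ZnF4-/-, H2-T22 at 3.61 ± 0.707 and 3.87 ± 0.332, H2-K2 at 4.52 ± 1.35 and 3.72 ± 0.0778, and H2-M3, which presents formylated peptides, at 5.30 ± 0.875 and 6.50 ± 1.03. H2-Q1 was at 1.52 ± 0.452 RPKM in wild type and 0.845 ± 0.233 in ZnF4-/-. None of these passed in either fit. The exons of H2-T10 and H2-T22 overlap antisense transcripts, and the strand of the libraries is not given in the sources used here. The 6 untested chains were each below 1 RPKM on average. Rows were classed as chains by their symbol. The annotation types H2-K2 as a pseudogene, H2-T10 and H2-Bl as polymorphic pseudogenes and H2-Q8 as a processed transcript.

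Of the loading genes, Tapbp and Tap1 rose in ZnF4-/- with the block and none without it. Tapbp (chromosome 17, 34052844 to 34066235), which bridges class I chains to the peptide transporter, was at 38.4, 51.98 and 48.8 RPKM in wild type, 46.6 and 50.4 RPKM in ZnF1-/- and 63.4 and 67.3 RPKM in ZnF4-/-. Both ZnF4-/- libraries were above all others. The difference from wild type was 0.50 ± 0.18 log2 units (limma adjusted p = 0.331), and Tapbp rose with the block (adjusted p = 0.0184). Tap1 (chromosome 17, 34324498 to 34334170) was at 26.6, 38.5 and 35.1 RPKM in wild type, 36.3 and 39.9 RPKM in ZnF1-/- and 40.6 and 47.7 RPKM in ZnF4-/-. Here too the ZnF4-/- libraries exceeded the others. The difference from wild type was 0.41 ± 0.19 log2 units (limma adjusted p = 0.587), and Tap1 rose with the block (adjusted p = 0.0383). Tap2 (chromosome 17, 34340472 to 34353266), its partner, was at 36.6, 77.2 and 58.1 RPKM in wild type, 44.7 and 68.6 RPKM in ZnF1-/- and 52.7 and 65.3 RPKM in ZnF4-/-, so the groups overlapped and the difference was 0.10 ± 0.33 log2 units (limma adjusted p = 0.988). Exons of Tap1 share 212 bases with the neighbouring proteasome gene Psmb9, and 533 bases of Tap2 lie under another annotated gene.

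Erap1, the trimming peptidase, was at 18.3, 16.7 and 16 RPKM in wild type, 17.96 and 18.1 RPKM in ZnF1-/- and 21.6 and 23.1 RPKM in ZnF4-/-. Its ZnF4-/- libraries were the highest, the difference from wild type was 0.39 ± 0.13 log2 units (limma adjusted p = 0.322), and it missed the threshold with the block (adjusted p = 0.0587). The chaperone gene Calr was at 76.2, 109 and 109 RPKM in wild type, 84.6 and 103 RPKM in ZnF1-/- and 107 and 125 RPKM in ZnF4-/-, where ZnF4-/- replicate 1 lay below wild type 2A and 2B, and the difference was 0.26 ± 0.22 log2 units (limma adjusted p = 0.909). Pdia3, the disulphide isomerase of the loading complex, was at 61.04, 71.8 and 78.7 RPKM in wild type, 65.3 and 69.3 RPKM in ZnF1-/- and 70.7 and 92.96 RPKM in ZnF4-/-, with a difference of 0.21 ± 0.19 log2 units (limma adjusted p = 0.926). All 7 loading genes had a positive difference, with a median of 0.39, and 6 of 7 were higher in both read lengths. By limma 0 of them passed, 3 had an unadjusted p under 0.05 and 2 rose with the block. Over all 10498 tested genes 736 were higher and 327 lower at that unadjusted p.

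As a group, 19 of the 23 tested class I members had a positive difference in ZnF4-/-, with a median of 0.39 log2 units against -0.05 over all tested genes. Groups did not overlap for 13 of 23 in the higher direction and 1 of 23, H2-Q2, in the lower. Over all tested genes 12.5% did not overlap in the higher direction and 10.6% in the lower. In both read lengths 16 of 23 were higher, where 25.1% of all tested genes were. The class I median was 0.49 within replicate 1 and 0.39 within replicate 2. Because H2-M2 and H2-Q6 had a wild type mean under 1 RPKM, they entered this group through the libraries where they are high. The 23 rows count H2-Q7 and H2-Q9, and H2-T22 and H2-T9, separately, although each pair held the same reads. H2-Q7 and H2-Q9 are both among the 13 without overlap. Without H2-Q9 and H2-T9 the class I median was 0.39.

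Upstream sequence of the class I genes carries known control elements, shown here for the chains and partners named above and for 1 class II gene for comparison. Each line gives the 200 bases before the RefSeq start site (build GRCm38.p6, which is not the build of the expression table), 5′ to 3′ on the gene's strand. Capitals mark exact matches, on either strand, to the interferon response core (GAAA, any 2 bases, GAAA), the palindrome of enhancer A that binds NF-kB (as the first capitals in H2-K1 show it), the X2 box core TGACG and the Y box CCAAT, overlapping matches included. The X2 core was added after the sequences had been seen.
H2-K1, chr17:34000348-34000547, minus strand: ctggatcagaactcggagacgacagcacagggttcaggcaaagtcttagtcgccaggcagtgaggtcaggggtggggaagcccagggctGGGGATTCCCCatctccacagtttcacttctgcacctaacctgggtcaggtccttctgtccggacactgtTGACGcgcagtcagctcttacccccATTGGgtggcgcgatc
H2-D1, chr17:35262894-35263093, plus strand: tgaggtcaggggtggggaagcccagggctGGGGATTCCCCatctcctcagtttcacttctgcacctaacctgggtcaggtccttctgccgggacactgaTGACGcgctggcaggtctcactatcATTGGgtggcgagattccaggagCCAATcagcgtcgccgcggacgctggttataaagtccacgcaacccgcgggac
H2-Q7, chr17:35438955-35439154, plus strand: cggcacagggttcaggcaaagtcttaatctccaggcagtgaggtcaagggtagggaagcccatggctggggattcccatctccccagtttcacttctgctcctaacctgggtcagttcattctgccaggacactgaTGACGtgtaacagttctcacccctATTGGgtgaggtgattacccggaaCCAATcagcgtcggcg
H2-M2, chr17:37483555-37483754, minus strand: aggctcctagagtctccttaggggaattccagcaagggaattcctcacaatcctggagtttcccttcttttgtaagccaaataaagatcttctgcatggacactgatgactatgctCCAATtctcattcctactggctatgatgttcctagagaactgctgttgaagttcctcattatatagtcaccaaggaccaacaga
B2m, chr2:122147487-122147686, plus strand: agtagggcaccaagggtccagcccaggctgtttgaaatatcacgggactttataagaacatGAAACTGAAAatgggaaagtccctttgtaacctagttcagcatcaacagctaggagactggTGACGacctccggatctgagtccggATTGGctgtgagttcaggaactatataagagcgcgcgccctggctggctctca
Tap1, chr17:34187356-34187555, plus strand: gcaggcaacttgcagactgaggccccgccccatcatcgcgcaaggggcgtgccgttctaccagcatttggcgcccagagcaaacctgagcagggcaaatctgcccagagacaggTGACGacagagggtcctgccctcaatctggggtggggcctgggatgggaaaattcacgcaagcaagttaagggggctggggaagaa
H2-Aa, chr17:34287824-34288023, minus strand: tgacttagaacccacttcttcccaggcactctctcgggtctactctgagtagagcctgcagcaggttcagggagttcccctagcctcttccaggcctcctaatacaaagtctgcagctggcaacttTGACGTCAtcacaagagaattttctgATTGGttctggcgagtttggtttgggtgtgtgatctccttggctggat

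H2-K1 and H2-D1 hold enhancer A, the X2 core and the Y box in the same order, with enhancer A starting 111 bases before the start site in H2-K1 and 171 bases before it in H2-D1. H2-Q7 has the X2 core and the Y box but no exact enhancer A, and in H2-M2 the printed stretch holds a Y box alone. B2m has the interferon response core 139 bases before its start, and Tap1 the X2 core at 86 bases. In the 250 bases before the start, enhancer A occurred in 10 of 32851 RefSeq promoters (0.0304%), where each start site of a gene counts as a promoter. The 3 members with it were H2-D1, H2-K1 and H2-Q6. H2-K1 has it at both of its listed start sites, 125 bases before the second. The promoters of 28 members were found by symbol, and each member was counted once, at its first listed start site. The X2 core occurred in 10 of these 28 and in 17.8% of all promoters, the Y box in 23 and 33.8%, and the interferon response core in 3 (B2m, H2-T22 and H2-T23) and 2.98%. The core GGGAA, to which Ikaros binds, occurred in 21 of 28 and in 56.2% of all, with 2 matches in the printed stretch of H2-K1 and 3 in that of H2-M2. These matches are descriptions of letters and were not tested for binding.

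In ZnF1-/- thymus no class I gene passed against wild type without the block. By limma 0 of 34 members passed, against 0.0762% of all tested genes called higher and 0.00953% called lower, and 1 was higher (H2-M2) and 1 lower (H2-Ob) at an unadjusted p under 0.05. At that unadjusted p, 223 of all 10498 tested genes were higher and 181 lower. With the block 1 member, H2-M2, rose and 0 fell, against 0.572% and 0.305% of all tested genes. H2-M2 was at 1.58 ± 0.615 RPKM in ZnF1-/- (SD, n = 2), a difference of 1.21 ± 0.25 log2 units (limma adjusted p = 0.327), adjusted p = 0.0265 with the block. For the most abundant chains and for Nlrc5 the differences were -0.32 ± 0.17 log2 units (limma adjusted p = 1.00) for H2-K1, -0.09 ± 0.16 for H2-D1, -0.08 ± 0.22 for the light chain B2m and -0.09 ± 0.15 for Nlrc5, and none passed.

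Over the 23 class I members the median in ZnF1-/- was -0.09 log2 units, against -0.02 over all tested genes. Groups did not overlap for 1 member, H2-M2, in the higher direction and for 2 in the lower, where all tested genes gave 6.85% and 6.99%. H2-Q7 differed between the ZnF1-/- libraries, at 2.46 RPKM in replicate 1 and 0.72 RPKM in replicate 2. The loading genes had a median of 0.02, and 0 of 7 passed in either fit.

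The 2 mutants were also compared directly. In ZnF4-/- against ZnF1-/-, 3 of 34 members rose and 0 fell, against 2.02% called higher and 0.324% called lower among all tested genes. These were H2-K1, by 1.23 ± 0.18 log2 units (limma adjusted p = 0.016), Nlrc5, by 1.02 ± 0.17 log2 units (limma adjusted p = 0.0247), and H2-Q6, by 1.41 ± 0.27 log2 units (limma adjusted p = 0.0453). With the block 7 rose and 0 fell, against 5.19% and 2.10%, and the added rows were H2-D1 (adjusted p = 0.00774), H2-Q7 (0.0109), H2-Q9 (0.0112) and H2-M2 (0.0223). Without the block the difference of H2-M2 was 0.91 ± 0.27 log2 units (limma adjusted p = 0.22).

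Among class I members 17 of 23 were higher without overlap, and 0 of 23 lower, where 15.2% and 16.8% of all tested genes were, and the class I median was 0.33 against -0.03. The 17 include both H2-Q7 and H2-Q9, and both H2-T22 and H2-T9, although each pair held the same reads. Instead of 3 members, 0 were called when either ZnF4-/- library, ZnF1-/- replicate 2 or wild type 2B was left out, and 1 when wild type 2A was, whose values enter through the shared estimate of spread. H2-Q6 passed in 3 of 15 alternatives (a pseudocount of 1 RPKM, no minimum level and the replicate block) and in 0 of the 7 fits that left out a library, with adjusted p from 0.0119 with the block to 0.218 without ZnF4-/- replicate 2. This comparison shares its ZnF4-/- libraries with the one against wild type, so the 2 are not independent.

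**Figure D2:**
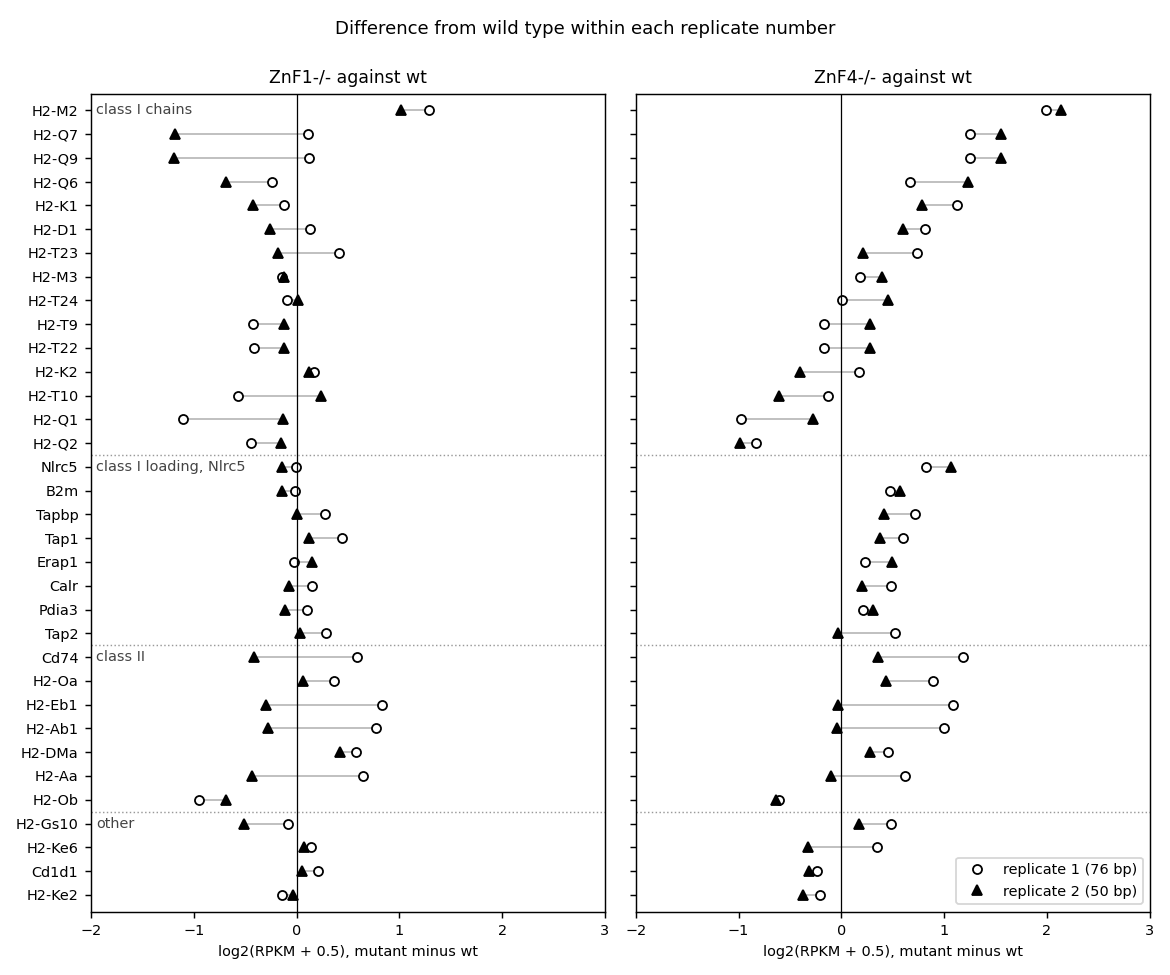
Log2 difference from wild type on the horizontal axis, as log2(RPKM + 0.5), for ZnF1-/- and ZnF4-/- in separate panels, with 1 row a tested member. Open circles are the difference within replicate 1 (76 bp reads) and filled triangles that within replicate 2 (50 bp reads), joined by a grey line. Dotted lines part the class I chains, the class I loading genes with Nlrc5, the class II genes and the other members. No point has an error because each difference rests on 1 mutant library. In ZnF4-/- the class I medians are 0.49 and 0.39, while the class II medians are 0.89 in replicate 1 and -0.03 in replicate 2.

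Class II genes did not pass without the block, and their differences varied with the replicate number. The structural chains H2-Aa, H2-Ab1 and H2-Eb1 exceeded wild type in replicate 1 of both mutants. In replicate 2, ZnF4-/- lay between wild type 2A and 2B and ZnF1-/- below both. Of 7 tested class II members 0 passed by limma in ZnF4-/-, 1 was higher and 1 lower at an unadjusted p under 0.05, and with the block H2-Oa rose and H2-Ob fell. At that unadjusted p, 736 of all 10498 tested genes were higher and 327 lower. The class II median in ZnF4-/- was 0.34 log2 units, but it was 0.89 within replicate 1 and -0.03 within replicate 2, and without wild type replicate 1 it was 0.10. In ZnF1-/- the median was 0.10, made of 0.59 within replicate 1 and -0.30 within replicate 2. It was -0.13 without wild type replicate 1 and -0.07 without ZnF1-/- replicate 1, and 0 members passed in either fit.

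H2-Aa (chromosome 17, 34406276 to 34424772, minus strand) encodes the alpha chain of the class II molecule I-A. It was at 27.8, 33.7 and 39.2 RPKM in wild type, 43.8 and 26.7 RPKM in ZnF1-/- and 43.1 and 33.8 RPKM in ZnF4-/-. Wild type replicate 1 was among the lowest libraries and the other replicate 1 libraries were the highest, so the groups overlapped. The difference in ZnF4-/- was 0.62 within replicate 1 and -0.10 within replicate 2. H2-Ab1 (chromosome 17, 34400154 to 34406363, plus strand), the beta chain, was at 17.5, 29.8 and 33.5 RPKM in wild type, 30.2 and 25.9 RPKM in ZnF1-/- and 35.4 and 30.6 RPKM in ZnF4-/-, with a difference in ZnF4-/- of 1.00 within replicate 1 and -0.05 within replicate 2. H2-Eb1 (chromosome 17, 34442828 to 34453144), the beta chain of I-E, was at 8.98, 13.3 and 16.2 RPKM in wild type, 16.4 and 11.9 RPKM in ZnF1-/- and 19.6 and 14.3 RPKM in ZnF4-/-, with a difference in ZnF4-/- of 1.09 within replicate 1 and -0.03 within replicate 2. In these 3 genes wild type replicate 1 stood below wild type 2A and 2B. H2-Aa and H2-Ab1 overlap by 17 exon bases on opposite strands.

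**Figure D3:**
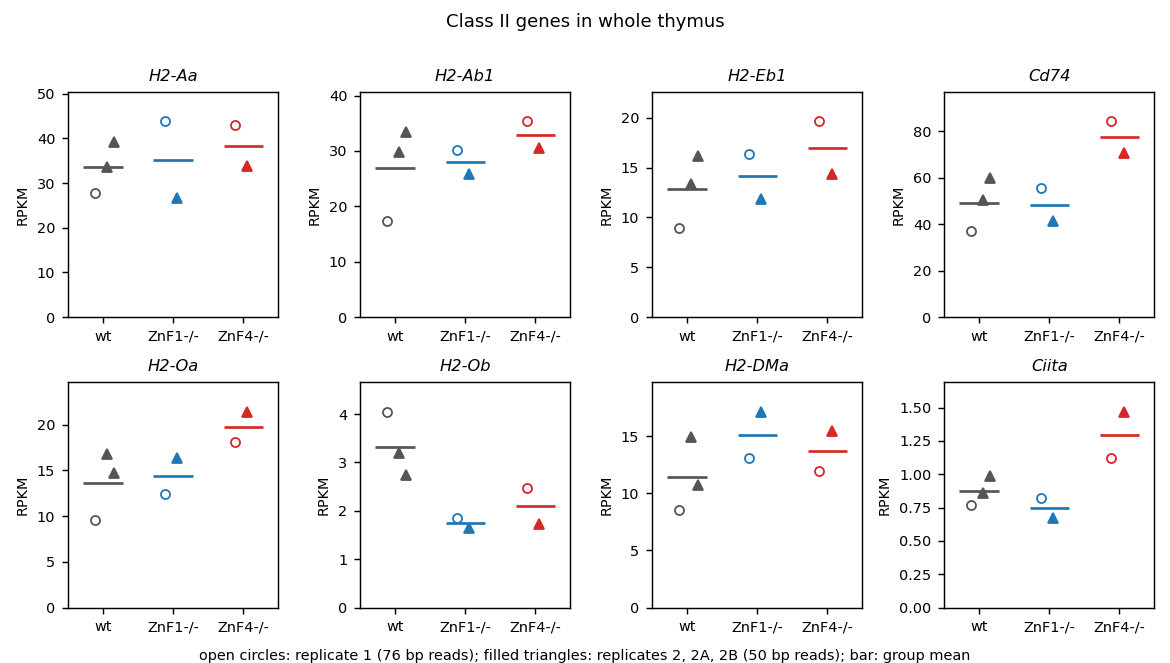
Levels of 8 class II genes in RPKM on linear axes starting at 0, 1 panel a gene, with symbols and bars as for the class I genes. In the H2-Ab1 panel wild type replicate 1, at 17.5 RPKM, lies below all other libraries, and in the H2-Ob panel the 4 mutant libraries lie at 1.64 to 2.48 RPKM, below the wild type range of 2.73 to 4.05 RPKM.

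The invariant chain gene Cd74 was the most abundant class II member, at 36.9, 50.6 and 60.1 RPKM in wild type, 55.7 and 41.2 RPKM in ZnF1-/- and 84.4 and 70.8 RPKM in ZnF4-/-. Its ZnF4-/- libraries were above all others. The difference from wild type was 0.67 ± 0.25 log2 units (limma adjusted p = 0.369) and did not pass with the block (adjusted p = 0.112). It was 1.18 within replicate 1 and 0.36 within replicate 2. Ciita, the class II coactivator, had a mean under 1 RPKM and was not tested. It was at 0.77, 0.86 and 0.99 RPKM in wild type, 0.82 and 0.67 RPKM in ZnF1-/- and 1.12 and 1.47 RPKM in ZnF4-/-, with the 2 ZnF4-/- values the highest. H2-Eb2 was at 0.28, 0.34 and 0.43 RPKM in wild type, 0.23 and 0.20 RPKM in ZnF1-/- and 0.66 and 0.40 RPKM in ZnF4-/-, and H2-Ea was not analysed here.

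The 2 genes of the H2-O dimer differed in direction. H2-Oa (chromosome 17, 34229285 to 34232179) was at 9.53, 16.7 and 14.7 RPKM in wild type, 12.4 and 16.4 RPKM in ZnF1-/- and 18.1 and 21.4 RPKM in ZnF4-/-, highest in ZnF4-/- in both read lengths. The difference was 0.55 ± 0.26 log2 units (limma adjusted p = 0.572), and H2-Oa rose with the block (adjusted p = 0.022). H2-Ob (chromosome 17, 34375848 to 34390850), which encodes the partner chain of the H2-O dimer, was at 4.05, 3.20 and 2.73 RPKM in wild type, 1.85 and 1.64 RPKM in ZnF1-/- and 2.48 and 1.72 RPKM in ZnF4-/-. All 4 mutant libraries were below the 3 wild type libraries. The difference in ZnF4-/- was -0.56 ± 0.21 log2 units (limma adjusted p = 0.41), and H2-Ob fell with the block (adjusted p = 0.0412). In ZnF1-/- it was -0.76 ± 0.21 log2 units (limma adjusted p = 0.721), and it missed the threshold with the block (adjusted p = 0.0554). The 2 mutants share their wild type libraries, so their differences are not independent.

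H2-DMa, the alpha chain of the peptide exchanger, was at 8.56, 14.95 and 10.7 RPKM in wild type, 13.1 and 17.2 RPKM in ZnF1-/- and 11.9 and 15.4 RPKM in ZnF4-/-, with overlapping groups and a difference of 0.28 ± 0.25 log2 units (limma adjusted p = 0.927) in ZnF4-/-. Its partners were low. H2-DMb1 was at 0.72, 1.00 and 1.04 RPKM in wild type, 0.99 and 0.74 RPKM in ZnF1-/- and 1.35 and 0.89 RPKM in ZnF4-/-, and H2-DMb2 at 0.53, 0.71 and 0.97 RPKM in wild type, 0.29 and 0.57 RPKM in ZnF1-/- and 0.63 and 1.19 RPKM in ZnF4-/-. Neither was tested, and 27.1% and 29.3% of their 50-base stretches occur in another gene.

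Cd1d1 (chromosome 3, 86799756 to 86803363), which presents lipids to NKT cells, was at 10.7, 11.5 and 10 RPKM in wild type, 12.5 and 11.1 RPKM in ZnF1-/- and 9.06 and 8.50 RPKM in ZnF4-/-. Both ZnF4-/- libraries were the lowest, and the difference of -0.28 ± 0.14 log2 units (limma adjusted p = 0.632) did not pass in either fit. The H2-Gs10 row, which RefSeq links to H2-Q4, was at 19.9, 27.3 and 20.9 RPKM in wild type, 18.7 and 16.6 RPKM in ZnF1-/- and 27.95 and 26.9 RPKM in ZnF4-/-, with a difference of 0.28 ± 0.18 log2 units (limma adjusted p = 0.778). This row was kept outside the class I counts and medians. H2-Ke2 and H2-Ke6 lie in the complex but encode a prefoldin subunit (Pfdn6) and a steroid dehydrogenase (Hsd17b8), and present no antigen. They were at 27.98 ± 3.91 and 14.7 ± 5.50 RPKM in wild type, 25.4 ± 5.52 and 14.2 ± 5.62 in ZnF1-/-, and 21.8 ± 1.77 and 12.7 ± 1.31 in ZnF4-/-. None of these 3 rows passed in either fit.

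Few other genes of the class I pathway passed. Of 19 listed genes 16 were tested, and 0 passed in ZnF4-/- or ZnF1-/- against wild type by limma. In ZnF4-/- 0 were higher and 1 lower at an unadjusted p under 0.05, with a median of -0.04. The immunoproteasome genes Psmb8, Psmb9 and Psmb10, whose products cut peptides for class I, did not pass in either fit in ZnF4-/-. Psmb8 was at 77.6, 172 and 135 RPKM in wild type, 103 and 168 RPKM in ZnF1-/- and 105 and 138 RPKM in ZnF4-/-, higher with 50 bp reads in every group. The one gene that fell with the block was Cd1d2, a copy of Cd1d1, at 2.19, 2.58 and 1.96 RPKM in wild type, 2.58 and 2.48 RPKM in ZnF1-/- and 0.89 and 1.10 RPKM in ZnF4-/-. Its difference was -0.87 ± 0.18 log2 units (limma adjusted p = 0.056; 0.0146 with the block). Against ZnF1-/-, Cd1d2 fell without the block as well, with a difference of -1.02 ± 0.19 log2 units (limma adjusted p = 0.0454).

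In the class II pathway 16 of 17 listed genes were tested, and 0 passed in ZnF4-/- by limma, with 1 higher and 1 lower at an unadjusted p under 0.05. With the block Ctss rose and Ctsl fell. Both encode lysosomal proteases that cut the invariant chain, Ctss mainly in antigen-presenting cells of blood origin and Ctsl in cortical epithelium of the thymus. Ctss was at 12.5, 13.7 and 11.7 RPKM in wild type, 9.40 and 9.84 RPKM in ZnF1-/- and 16.8 and 25.4 RPKM in ZnF4-/-, with ZnF4-/- the highest. The difference was 0.69 ± 0.19 log2 units (limma adjusted p = 0.18; 0.0221 with the block). Ctsl was at 27.6, 41.2 and 36.5 RPKM in wild type, 30.1 and 40.6 RPKM in ZnF1-/- and 17.9 and 19.8 RPKM in ZnF4-/-, with ZnF4-/- the lowest and a difference of -0.86 ± 0.22 log2 units (limma adjusted p = 0.125; 0.004 with the block). In ZnF1-/- 0 of the 16 passed in either fit and 2 were lower at an unadjusted p under 0.05.

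Among 22 genes of interferon signalling and shared regulators, 21 were tested and 1 rose in ZnF4-/-, with a median of 0.08. It was Irf4, a lymphoid transcription factor of the interferon regulatory family, at 2.47, 2.76 and 2.76 RPKM in wild type, 1.99 and 2.87 RPKM in ZnF1-/- and 9.87 and 13.2 RPKM in ZnF4-/-. The difference was 1.92 ± 0.20 log2 units (limma adjusted p = 0.00416). With the block 5 rose and 1 fell. Irf9, which acts in the response to type I interferon, was at 14.8, 15.4 and 17.03 RPKM in wild type, 14.6 and 14.7 RPKM in ZnF1-/- and 19.6 and 28.5 RPKM in ZnF4-/- (with the block, adjusted p = 0.0261), and Irf7 (adjusted p = 0.0449) and Socs3 (adjusted p = 0.0297) rose too. Ifngr1, a chain of the interferon gamma receptor, was at 114, 171 and 168 RPKM in wild type, 174 and 231 RPKM in ZnF1-/- and 85.9 and 111 RPKM in ZnF4-/- and fell with the block (adjusted p = 0.0149). ZnF4-/- was lowest within each read length. In ZnF1-/- 0 of 21 passed in either fit and 1 was higher at an unadjusted p under 0.05.

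Thymocyte markers moved beside the class I genes in ZnF4-/-. Of 10 markers of mature single-positive thymocytes, 2 rose (S1pr1 and Slfn1) and 4 with the block. S1pr1, the egress receptor, was at 9.67, 11.9 and 11.8 RPKM in wild type, 7.48 and 9.29 RPKM in ZnF1-/- and 20.9 and 26.4 RPKM in ZnF4-/-. The summed level of that list was 681 to 811 RPKM in wild type, 673 and 743 RPKM in ZnF1-/- and 663 and 711 RPKM in ZnF4-/-. Most of it came from Cd52. That gene was at 583, 443 and 567 RPKM in wild type, 469 and 505 RPKM in ZnF1-/- and 407 and 372 RPKM in ZnF4-/-. Of the 10 markers, 7 were higher and 2 lower in ZnF4-/- in both read lengths, with a median difference of 0.47. Over all 10498 tested genes 2640 were higher and 3061 lower in both read lengths. Of 12 double-positive markers 0 passed by limma and 2, among them Cd8a, fell with the block; at an unadjusted p under 0.05 the count was also 2 lower. Their summed level was 4866 to 6445 RPKM in wild type, 5404 and 6295 RPKM in ZnF1-/- and 4372 and 5193 RPKM in ZnF4-/-. Within each read length the ZnF4-/- sum was the lowest. Of these 12 markers, 3 were higher and 9 lower in ZnF4-/- in both read lengths, with a median difference of -0.36. No marker of either list was at 0 in any library. The part of these shifts in the class I values was not tested.

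Markers of cells that make class II were low or mixed. Of 12 dendritic cell markers 3 were tested, 0 passed in ZnF4-/- by limma, 2 rose with the block and 1 was higher at an unadjusted p under 0.05, and their sum was 54.3 to 92.9 RPKM in wild type, 75.1 and 105 RPKM in ZnF1-/- and 90.7 and 137 RPKM in ZnF4-/-. Most of that sum came from Ccr7, Bst2 and Snx22. Ccr7, also listed as a marker of mature single-positive thymocytes, was at 21.9, 33.2 and 33.4 RPKM in wild type, 23.9 and 30.5 RPKM in ZnF1-/- and 45.7 and 70.3 RPKM in ZnF4-/-. Bst2 was at 18.3, 35.9 and 35.1 RPKM in wild type, 32.6 and 51.9 RPKM in ZnF1-/- and 27.4 and 46.98 RPKM in ZnF4-/-, and Snx22 overlapped between groups. The defining genes Flt3, Xcr1, Clec9a and Zbtb46 were all at 0.63 RPKM or less. Of 8 tested macrophage markers 0 passed by limma in ZnF4-/-, and 2 were higher both at an unadjusted p under 0.05 and with the block, with sums of 58.7 to 83.2 RPKM in wild type, 48.7 and 73.9 RPKM in ZnF1-/- and 99.95 and 133 RPKM in ZnF4-/-. Of 5 tested epithelial markers 2 rose, Krt18 and Cldn4. Krt18 reached a mean of 1 RPKM only through ZnF4-/-, and without that minimum it still passed (limma adjusted p = 0.00318). The epithelial sums were 18.4 to 24.4 RPKM in wild type, 14.2 and 20.2 RPKM in ZnF1-/- and 48.99 and 56.6 RPKM in ZnF4-/-. Without Krt18 and Cldn4 the other 13 markers summed to 8.95 to 11.1 RPKM in wild type, 8.43 and 10.8 RPKM in ZnF1-/- and 12.1 and 10.04 RPKM in ZnF4-/-, a sum added after seeing the data. Foxn1, Krt14 and Enpep were at 0.09 RPKM or less in every library. The part of these cells in Cd74, H2-Oa, H2-Ob or the other class II values was not tested.

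B cell markers were low except for Cd79b. Their summed level was 21.7 to 27.5 RPKM in wild type, 27.8 and 37 RPKM in ZnF1-/- and 17.7 and 22.5 RPKM in ZnF4-/-, and 3 of 10 were tested. In ZnF1-/- 0 passed by limma, 1 was higher and 2 lower at an unadjusted p under 0.05, and 1 rose and 2 fell with the block. Cd79a, a component of the B cell receptor, was at 1.40, 1.74 and 1.62 RPKM in wild type, 0.38 and 0.47 RPKM in ZnF1-/- and 1.83 and 1.93 RPKM in ZnF4-/-. H2-Ob, which B cells express, was at its lowest in all 4 mutant libraries, of both genotypes. The part of B cells in that value was not tested.

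**Figure D4:**
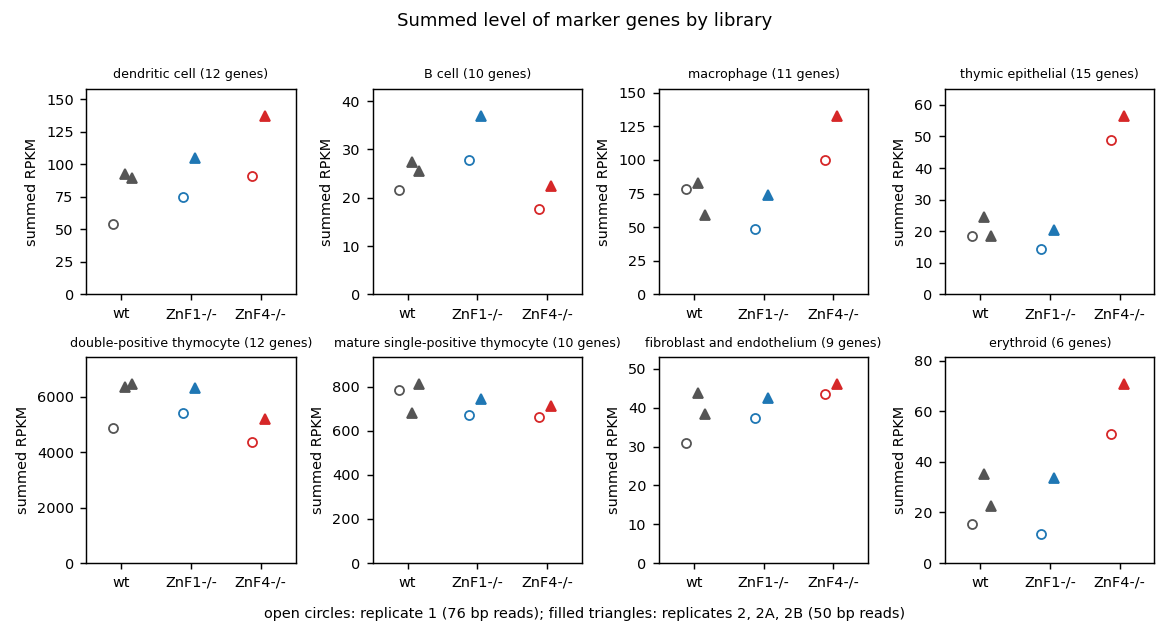
Summed levels in RPKM of all marker lists, among them lists for fibroblast and endothelium and for erythroid cells, 1 panel a list, in each library. Symbols are as for the class I genes. The thymic epithelial sums in ZnF4-/-, 49.0 and 56.6 RPKM, lie above the wild type range of 18.4 to 24.4 RPKM through Krt18 and Cldn4, without which they are 12.1 and 10.04 RPKM against 8.95 to 11.1 RPKM. The sums of double-positive thymocytes overlap between groups when both read lengths are pooled. Within each read length the ZnF4-/- sum is the lowest, at 4372 and 5193 RPKM.

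Other genes of the complex were counted beside the members. Between Tapbp and H2-M2 (mm9 chromosome 17, 34052844 to 37620497) 82 genes that are not members were tested. In ZnF4-/- against wild type 2 of them rose and 0 fell, with a median of -0.04. The 2 are 2.44% of the 82, near the 2.24% called higher over all tested genes, and with the block 3 rose, or 3.66% against 6.10%. Rnf39, a ring finger gene (37079863 to 37084931), was at 0.76, 1.27 and 0.95 RPKM in wild type, 0.50 and 0.60 RPKM in ZnF1-/- and 4.71 and 6.40 RPKM in ZnF4-/-. It rose by 2.02 ± 0.22 log2 units (limma adjusted p = 0.00468). Rnf39 reached a mean of 1 RPKM only through ZnF4-/-, and without that minimum it still passed (limma adjusted p = 0.00893). Ddr1, a collagen receptor gene (35818512 to 35841566), was at 0.67, 1.67 and 1.40 RPKM in wild type and 5.18 and 7.97 RPKM in ZnF4-/-, a rise of 2.04 ± 0.36 (adjusted p = 0.0347). In ZnF1-/- 0 of 82 passed.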

How the data were processed

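Polyadenylated RNA was measured in 7 libraries of whole thymus from mice of 4 weeks. The deposited values are RPKM per gene, which the authors computed from exonic reads in SeqMonk with NCBI annotation of mm9, keeping 1 transcript a gene, per the series design text. TopHat and bedtools are named in the submitters' processing notes, and their versions are not given in the sources used here. The members, gene lists and tests were chosen with earlier results of these data known. The members comprise every H2- row and the 11 named genes, each accounted for, and values in every library are given for the classical chains, loading genes, class II genes and every member that passed in either fit. From the pathway lists, genes that passed in either fit are named, except a few that are not reported here.

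Values were taken as log2(RPKM + 0.5). Genes that averaged 1 RPKM or more were fitted with limma 3.58.1 (lmFit, eBayes with trend) in R 4.3.3, with all 3 groups in 1 fit. Tests were two-sided, adjusted by Benjamini and Hochberg over all 10498 tested genes, with a threshold of 0.05. Every p is from limma. At an unadjusted p under 0.05, 736 of the 10498 genes were higher and 327 lower in ZnF4-/- against wild type. In ZnF1-/- against wild type 223 were higher and 181 lower. These are the background for each unadjusted count given above. A permutation of 3 libraries against 2 cannot go below 0.1. The fit was tested on simulated data.

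The labels tie the replicate number to instrument and read length, so the numbers pair libraries across groups. Deviations from group means correlated at 0.489 to 0.737 in 8 same-number pairs. The replicate block is therefore given beside a result where it changes the call. Gene coordinates are from GENCODE M1 on NCBIM37 (mm9) and matched 41 of 44 members by symbol, and promoters are from RefSeq. Depth was estimated for the 76 bp libraries from 1-read steps, on which 29.8% to 52.4% of low values fell, against 10.4% to 11.6% by chance.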

Additional observations from a re-analysis of the deposited data

Results flagged for a closer look

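The class II genes Cd74 and H2-Aa differed in opposite directions from wild type in the ZnF1-/- libraries of different replicate number. For Cd74 the log2 difference was 0.59 within replicate 1 and -0.41 within replicate 2, or -0.29 against wild type 2A and -0.54 against wild type 2B. For H2-Aa it was 0.65 within replicate 1 and -0.44 within replicate 2, or -0.33 and -0.54 against the same libraries. Each value rests on 1 mutant library, and the difference between replicate numbers was not tested.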

How the results depend on the processing

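The class I median in ZnF4-/- against wild type kept its direction when 1 library was left out, at 0.30 to 0.42. The class II medians did not hold as well. Leaving out 1 library gave 0.10 (without wild type replicate 1) to 0.52 in ZnF4-/- against wild type and 0.04 (without ZnF4-/- replicate 1) to 0.34 in ZnF4-/- against ZnF1-/-. In ZnF1-/- against wild type it gave -0.13 (without wild type replicate 1) to 0.22, and without a minimum level the median was -0.01. In ZnF4-/- against wild type the 3 called members became 12 with the replicate block, 5 with quantile normalization, 0 with a minimum mean of 5 RPKM and 1 with wild type 2A and 2B averaged. Leaving out 1 library gave 0 to 4 calls. In ZnF4-/- against ZnF1-/- the 3 calls became 7 with the replicate block, 5 with a pseudocount of 1 RPKM, and 1 each with a minimum mean of 5 RPKM, with wild type 2A and 2B averaged and with the 2 mutants alone in the fit. Leaving out 1 library gave 0 to 3 calls. In ZnF1-/- against wild type the count of 0 became 1 with the block, and 0 calls were made without any 1 library. The cause of these changes was not tested. Alternatives for H2-Gs10 as a class I gene, and without the copies H2-Q9 and H2-T9, were chosen after seeing the data. The unknown depth of the 50 bp libraries limits low genes such as H2-M2 and H2-Q6.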
